A study of Mus musculus with 8 samples.

Results

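The genes described here are 10 components and targets of the hypoxia-inducible factor (HIF) pathway that lie outside glycolysis: Hif1a, the prolyl hydroxylase genes Egln1 and Egln3, and the HIF targets Adm, Bnip3, Bhlhe40, Ndrg1, Mxi1, Ero1l and Vegfa. They are 10 of the 24460 genes in the files, and were found by symbol. They were chosen after their normalized counts at the 3 doses had been seen in these same libraries. Their differences between doses are therefore given as a description, without p-values, and counts of those past the thresholds applied to all genes test nothing about them.

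RNA-Seq was performed on wild type mouse embryonic fibroblasts (MEFs), cells grown out from mouse embryos, exposed to RHPS4, a ligand of the G-quadruplex (G4) structures that guanine-rich nucleic acids can fold into. There were 3 libraries without RHPS4 (0 µM), 3 at 2 µM and 2 at 10 µM. All cells were grown in DMEM with 25 mM glucose at ambient oxygen, and the labels name no hypoxic group. The labels give exposures of 16 or 24 h without saying which applied to these libraries, and the methods describe 24 h for the work on mitochondrial function without naming the RNA-Seq. Nothing says whether the replicates were separate cultures, so the p-values below measure only the spread between these libraries. Stranded libraries were made from total RNA after removal of nuclear ribosomal RNA, and the files hold the number of fragments counted per gene.

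HIF is a transcription factor made of an α subunit, such as the product of Hif1a, and a β subunit, the product of Arnt. When oxygen is available, prolyl hydroxylases mark the α subunit, which is then bound by the VHL ubiquitin ligase and degraded, while at low oxygen it accumulates, binds DNA at the core ACGTG or GCGTG and switches on its targets. Much of this control acts on the protein, which was not measured here. Egln1 and Egln3 are HIF targets themselves, so that the pathway carries its own negative feedback.

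Each library held between 10455965 and 26688121 counts. A floor of 3 counts stood for 0.112 to 0.287 CPM, counts scaled to the library size, and the lowest count of any of the 10 genes, 66 fragments, lay well above this floor. Such floors cover counting error only. The share of counts from mitochondrial DNA (mtDNA) was 13.2% to 14.4% at 0 µM, 7.40% to 8.26% at 2 µM and 5.33% to 6.32% at 10 µM, and counts scaled over nuclear genes alone are among the alternatives in the closing section. The 10 fibroblast markers summed to 12730 to 13240 CPM at 0 µM, 11400 to 11750 CPM at 2 µM and 11100 to 11680 CPM at 10 µM. By contrast, the summed markers of macrophages, endothelium, epithelium and myoblasts stayed between 1.01 and 11.3 CPM in each of the 8 libraries, and 16 of these 20 markers had a mean under 1 CPM, although no marker was at 0 in all libraries. The part of the shift in mtDNA and in fibroblast markers in the results was not tested. In bulk RNA, fewer cells of a kind and less RNA per cell cannot be told apart.

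The regions before the start sites of these genes are shown first, because HIF binds the core and RHPS4 binds G4 structures. RefSeq windows of GRCm38.p6, from 250 bases before to 50 bases after an annotated start, were given for 8 of the 10 genes (Ero1l under its current symbol Ero1a), and none for Bhlhe40 and Ndrg1. ACGTG was found on either strand in 7 of the 8 genes, compared to 21.8% of 27025 mouse genes, and GCGTG in 5 of the 8, compared to 35.2%. All 8 had at least 1 of these cores, compared to 46.7% of genes. The palindrome CACGTG, which holds ACGTG on both strands, stood in the windows of Hif1a and Bnip3 and in those of 8.09% of genes. A potential G4, defined as 4 runs of at least 3 G separated by 1 to 7 bases on either strand, was found for Egln1, Bnip3, Mxi1 and Vegfa, compared to 20.4% of genes. The median GC content was 63.0% for the 11 windows of these genes and 52.7% for all windows. Such matches describe letters, and do not show that a factor or the ligand was bound. The stretches below have been chosen because they hold a core, in capitals (CACGT and CACGC are the cores read on the other strand), and overlap no annotated exon. They run 5′ to 3′ on the strand of the gene, and positions count from the annotated start. Only the core at the position given is in capitals. The stretches of Hif1a, Bnip3 and Ero1l hold further cores, wholly or partly in lower case.
Hif1a, core at −134, chr12:73907708-73907762, plus strand: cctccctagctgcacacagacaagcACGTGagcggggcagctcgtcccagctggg
Egln1, core at −126, chr8:124949351-124949405, minus strand: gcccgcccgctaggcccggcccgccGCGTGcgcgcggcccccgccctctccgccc
Egln3, core at −229, chr12:54204074-54204124, minus strand: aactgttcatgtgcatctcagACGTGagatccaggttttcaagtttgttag
Adm, core at −54, chr7:110627578-110627632, plus strand: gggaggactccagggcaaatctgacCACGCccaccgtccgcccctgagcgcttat
Bnip3, core at −107, chr7:138909584-138909638, minus strand: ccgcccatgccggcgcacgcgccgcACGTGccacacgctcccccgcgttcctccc
Mxi1, core at −66, chr19:53329322-53329376, plus strand: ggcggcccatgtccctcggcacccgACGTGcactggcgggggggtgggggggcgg
Ero1l, core at −63, chr14:45318606-45318660, minus strand: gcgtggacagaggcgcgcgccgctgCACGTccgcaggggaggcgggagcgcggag

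The stretches of Hif1a, Mxi1 and Ero1l lie inside the gene spans given below, before a start that RefSeq places within the gene. For Mxi1 and Vegfa, the window of the upstream start held neither core, and the cores stood only in windows of internal starts. Those of Vegfa lay within an exon and are not shown. The upstream window of Vegfa held a potential G4 at −73, shown here with its runs of G in capitals.
Vegfa, potential G4 at −73, chr17:46032399-46032475, minus strand: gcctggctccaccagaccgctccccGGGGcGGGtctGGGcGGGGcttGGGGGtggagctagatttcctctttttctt

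The 10 genes showed 3 kinds of dose pattern. Egln1, Egln3, Adm, Bnip3 and Bhlhe40 were lowest at 10 µM, at 37.8% to 63.1% of their untreated mean. Ndrg1, Mxi1, Ero1l and Vegfa were lowest at 2 µM, at 54.8% to 70.9% of the untreated mean, and at 10 µM lay at 86.4% to 127.7% of it. Hif1a itself lay at 97.6% at 2 µM and 102.9% at 10 µM. Values below are counts scaled with edgeR's TMM method to CPM, in the order of the replicates, and a log2 difference is followed by its standard error (SE) from the fit to all 8 libraries.

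**Figure D1:**
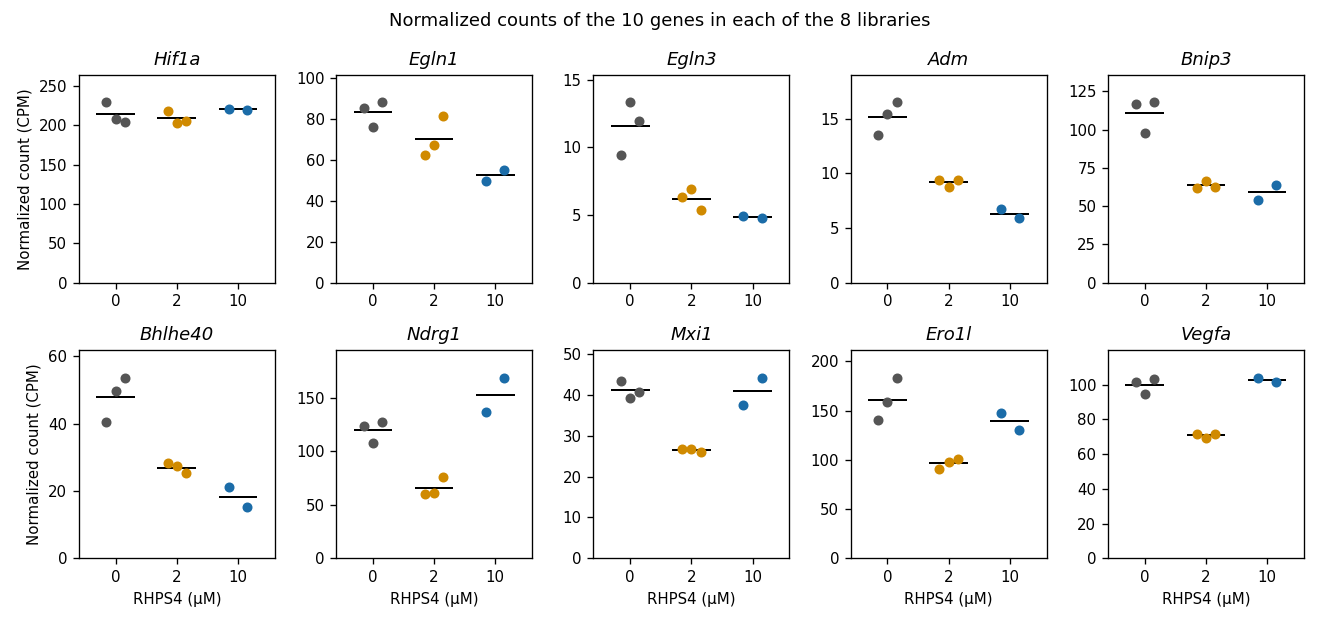
Normalized counts (CPM, linear axis from 0) of the 10 genes against the RHPS4 dose, with 1 point per library and a line at the mean of each dose (n = 3, 3 and 2). Hif1a stays between 203 and 229.9 CPM in the 8 libraries, the 5 genes from Egln1 to Bhlhe40 have their lowest mean at 10 µM, and the 4 genes from Ndrg1 to Vegfa have theirs at 2 µM.

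Hif1a (chromosome 12, 73901375 to 73947530 in GRCm38, plus strand) had 229.9, 208 and 204 CPM at 0 µM, 219, 203 and 205 CPM at 2 µM, and 221 and 220.2 CPM at 10 µM. The untreated libraries span the whole range of the treated ones, apart from the second 2 µM library, which was the lowest. Its log2 difference was −0.03 (SE 0.0702) at 2 µM and 0.04 (SE 0.0782) at 10 µM.

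Egln1 (chromosome 8, 124908587 to 124949324, minus strand) encodes PHD2, the main hydroxylase of HIF1α in most cells. It had 85.6, 76.1 and 88.5 CPM at 0 µM, 62.55, 67.4 and 81.6 CPM at 2 µM, and 49.9 and 55.4 CPM at 10 µM. Replicate 3 at 2 µM lay among the untreated libraries, whereas both 10 µM libraries lay below all others. Its log2 difference was −0.24 (SE 0.103) at 2 µM and −0.66 (SE 0.118) at 10 µM. Egln3 (chromosome 12, 54178981 to 54203860, minus strand) encodes PHD3, a hydroxylase that is strongly induced by HIF. Its levels were 9.43, 13.35 and 12.0 CPM at 0 µM, 6.33, 6.92 and 5.34 CPM at 2 µM, and 4.94 and 4.74 CPM at 10 µM. All treated libraries lay below all untreated libraries, and both 10 µM libraries below the 2 µM libraries. For Egln3 the log2 difference was −0.94 (SE 0.148) at 2 µM and −1.28 (SE 0.172) at 10 µM.

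Among the secreted factors, Adm and Vegfa had different patterns. Adm (chromosome 7, 110627661 to 110629820, plus strand), which encodes the vasodilator peptide adrenomedullin, had 13.6, 15.5 and 16.6 CPM at 0 µM, 9.41, 8.79 and 9.43 CPM at 2 µM, and 6.70 and 5.96 CPM at 10 µM. The 3 doses did not overlap, and the level was lower at each higher dose. For Adm the log2 difference was −0.74 (SE 0.109) at 2 µM and −1.27 (SE 0.129) at 10 µM. Vegfa (chromosome 17, 46016993 to 46032369, minus strand), the angiogenic growth factor, had 101.7, 94.4 and 103.5 CPM at 0 µM, 71.7, 69.1 and 71.7 CPM at 2 µM, and 104.1 and 101.4 CPM at 10 µM. The 2 µM libraries lay below all others, and the 10 µM libraries lay at the level of the untreated ones. The log2 difference was −0.50 (SE 0.0667) at 2 µM, 0.04 (SE 0.0735) at 10 µM, and 0.54 (SE 0.0737) between 10 and 2 µM.

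Bnip3 (chromosome 7, 138890836 to 138909519, minus strand) encodes a mitochondrial outer membrane protein that promotes mitophagy. It had 116.8, 97.9 and 118 CPM at 0 µM, 62.1, 66.3 and 62.4 CPM at 2 µM, and 53.9 and 64.05 CPM at 10 µM. Untreated libraries lay above all treated ones, while the treated doses overlapped. The log2 difference was −0.80 (SE 0.0929) at 2 µM, −0.91 (SE 0.106) at 10 µM, and −0.11 (SE 0.105) between 10 and 2 µM. Bnip3 shares 34.4% of its 75-base transcript stretches with other annotated transcripts. Gm16439, Gm6532 and Gm9419 hold such stretches in the same orientation, and AC160336.1 and Gm45507 in the opposite one. None of these has a row in the files. According to the study's methods, only fragments with a unique mapping to genes were counted. The strand setting and the number of fragments left out are not given, so the Bnip3 values are uncertain in these respects. Of the other 9 genes, Egln1, Egln3, Adm and Vegfa share no such stretch, and the rest share 0.882% to 4.71%.

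Bhlhe40 (chromosome 6, 108660629 to 108666925, plus strand) and Mxi1 (chromosome 19, 53310518 to 53375810, plus strand) encode transcriptional repressors, the former also a regulator of the circadian clock and the latter an antagonist of MYC. Bhlhe40 had 40.5, 49.7 and 53.65 CPM at 0 µM, 28.15, 27.3 and 25.2 CPM at 2 µM, and 21.0 and 15.2 CPM at 10 µM, with no overlap between doses. Its log2 difference was −0.85 (SE 0.128) at 2 µM and −1.41 (SE 0.150) at 10 µM, the lowest of the 10 genes at that dose. It shares 118 exon bases with the antisense gene 0610040F04Rik, which had means of 0.391, 0.711 and 0.448 CPM at 0, 2 and 10 µM. Mxi1 had 43.3, 39.1 and 40.8 CPM at 0 µM, 26.8, 26.8 and 26.04 CPM at 2 µM, and 37.5 and 44.2 CPM at 10 µM. Here the 2 µM libraries lay below all others, and the 10 µM libraries lay on both sides of the untreated ones. The log2 difference was −0.63 (SE 0.0858) at 2 µM, −0.005 (SE 0.093) at 10 µM and 0.62 (SE 0.0948) between 10 and 2 µM.

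Ndrg1 (chromosome 15, 66929318 to 66969640, minus strand), a stress-responsive gene linked to growth arrest and differentiation, had 123.8, 108 and 127.8 CPM at 0 µM, 60.1, 60.9 and 76.1 CPM at 2 µM, and 136.9 and 169.2 CPM at 10 µM. It was the only one of the 10 genes whose 10 µM libraries both lay above all untreated libraries. For Ndrg1 the log2 difference was −0.86 (SE 0.114) at 2 µM, 0.35 (SE 0.123) at 10 µM and 1.22 (SE 0.124) between 10 and 2 µM, and without the second 10 µM library the value at 10 µM against 0 µM was 0.16. Ero1l (chromosome 14, 45283087 to 45318771, minus strand), an oxidase that supports disulfide formation in the endoplasmic reticulum, had 140.1, 159 and 184 CPM at 0 µM, 91.0, 98.0 and 100.9 CPM at 2 µM, and 148 and 130.0 CPM at 10 µM. The 2 µM libraries lay below all others, and the 10 µM libraries overlapped the untreated ones. The log2 difference was −0.74 (SE 0.0999) at 2 µM, −0.21 (SE 0.111) at 10 µM and 0.52 (SE 0.110) between 10 and 2 µM.

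**Figure D2:**
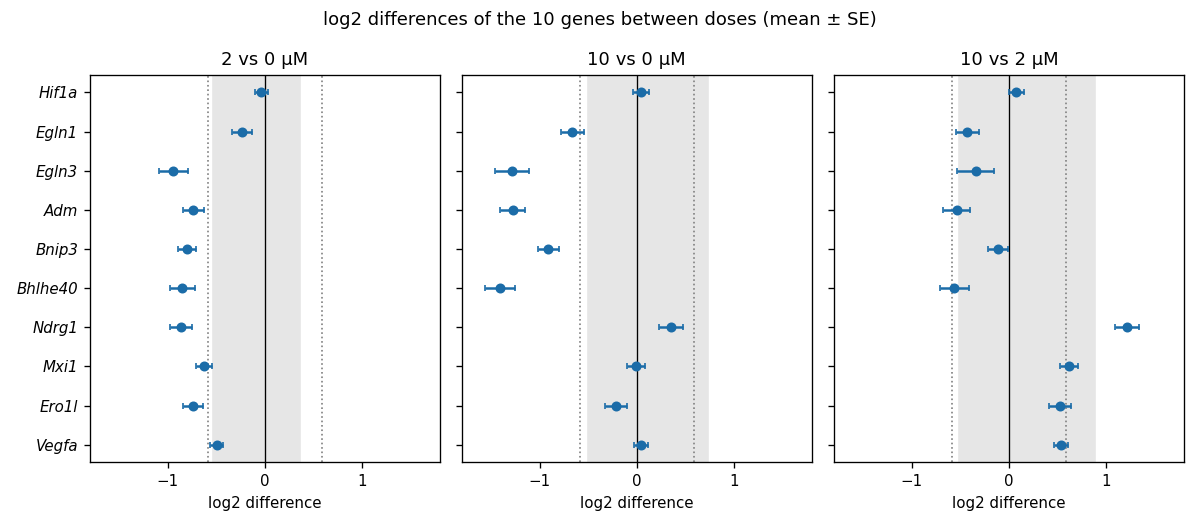
log2 differences of the 10 genes between doses (points, with the SE as bars, from edgeR over 8 libraries), for 2 against 0 µM, 10 against 0 µM and 10 against 2 µM. Grey bands hold the middle 90% of the 14296 genes tested and dotted lines mark a fold change of 1.5. At 2 µM 8 of the 10 points lie within 0.50 to 0.94 below 0 (Hif1a and Egln1 lie nearer to it), and between 10 and 2 µM Ndrg1 lies at 1.22.

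The thresholds of the study's methods (adjusted p below 0.01, fold change above 1.5) were applied to all 14296 genes that passed the filter on low counts, among which were all 10 genes. Both comparisons with 0 µM use the same 3 untreated libraries. At 2 µM, 7 of the 10 lay past both thresholds and lower, where 0.378% of all genes were called lower and 0.119% higher. These were Egln3, Adm, Bnip3, Bhlhe40, Ndrg1, Mxi1 and Ero1l. Vegfa missed only the fold threshold. At 10 µM against 0 µM, 5 of the 10 lay past them and lower, namely Egln1, Egln3, Adm, Bnip3 and Bhlhe40, where 1.14% of all genes were called lower and 1.95% higher. Between 10 and 2 µM, Ndrg1 and Mxi1 lay past them and higher, where 1.59% of all genes were called lower and 3.92% higher. Vegfa again missed only the fold threshold, and here Ero1l did too. In this comparison, with DESeq2 or without a filter on low counts, Mxi1 did not pass. Bhlhe40 did, as lower, so the count stayed at 2. Because the genes were chosen on these values, the counts are no test of them, and nothing is read from them against the background.

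The groups did not overlap for 8 of the 10 genes at 2 µM, all of them below the untreated libraries, where 12.9% of all genes lay below and 12.7% above. At 10 µM, 5 of the genes lay below all untreated libraries and 1, Ndrg1, above, where 20.0% of all genes lay below and 22.9% above. Between 10 and 2 µM, 4 lay below and 5 above, where 24.9% of all genes lay below and 27.0% above. Those below were Egln1, Egln3, Adm and Bhlhe40, by log2 differences of −0.43, −0.34, −0.54 and −0.56. Those above were Ndrg1, Mxi1, Ero1l and Vegfa, by 1.22, 0.62, 0.52 and 0.54, and Hif1a, by only 0.08. The median log2 difference of the 10 genes was −0.74 at 2 µM, −0.44 at 10 µM and −0.02 between 10 and 2 µM, whereas the medians of all genes tested were −0.01, 0.02 and 0.03.

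The number of genes past the thresholds at 2 µM depended on which libraries were included. Without replicate 3 at 0 µM, or replicate 1 or 2 at 2 µM, 0 of the 10 genes passed them in the edgeR fit. Over all genes, the same fits called 15, 24 and 6, compared to 71 with every library. Without replicate 2 at 0 µM or replicate 3 at 2 µM, 1 of the 10 passed, and 19 and 29 of all genes did. Leaving out replicate 1 at 0 µM went the other way over all genes, with 144 called, and 6 of the 10 passed. All 7 remained negative, from −0.58 to −1.03, when any of the 8 libraries was left out. At 10 µM against 0 µM, Egln1 no longer passed without replicate 3 at 0 µM, replicate 2 at 2 µM or either 10 µM library, and the other 4 genes passed in all 8 fits. Between 10 and 2 µM, Mxi1 no longer passed without replicate 3 at 2 µM or replicate 2 at 10 µM, and its difference was 0.46 in the latter case.

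Levels of different genes can be compared only per length, here in CPM per kb of annotated exons. At 0 µM the order was Bnip3 (49.0 CPM per kb), Hif1a (36.3), Ero1l (30.45), Vegfa (23.3), Egln1 (23.2), Ndrg1 (18.2), Bhlhe40 (10.2), Adm (9.39), Mxi1 (6.02) and Egln3 (4.35). Hif1a and Ero1l, Vegfa and Egln1, and Bhlhe40 and Adm overlapped between libraries, and the other neighbours did not. At 2 µM Hif1a stood first at 35.4 CPM per kb, above Bnip3 at 28.1, and Egln3 remained last at 2.33. At 10 µM, Ndrg1 had reached 23.2 CPM per kb, where its libraries overlapped those of Bnip3 (26.04) and Vegfa (24.0), while Bhlhe40 (3.85) and Adm (3.91) lay below Mxi1 (5.99). The prolyl hydroxylase mRNAs stood in the order Egln1, Egln2 and Egln3 at each dose, with Egln2 at 9.68, 10.3 and 8.83 CPM per kb.

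Across the 8 libraries, the levels of the genes correlated in 2 blocks. Pearson's r of log2 CPM ranged from 0.71 to 0.99 among Egln1, Egln3, Adm, Bnip3 and Bhlhe40, with Adm and Bhlhe40 the most alike (0.99), and from 0.79 to 0.96 among Ndrg1, Mxi1, Ero1l and Vegfa, with Mxi1 and Vegfa the most alike (0.96). Between the blocks r ranged from −0.15 to 0.63, with a median of 0.20. Hif1a correlated with no other member above 0.47, the value with Mxi1. The points share the dose and the library, and the blocks follow from the patterns on which the genes were sorted above, so these values are a description.

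**Figure D3:**
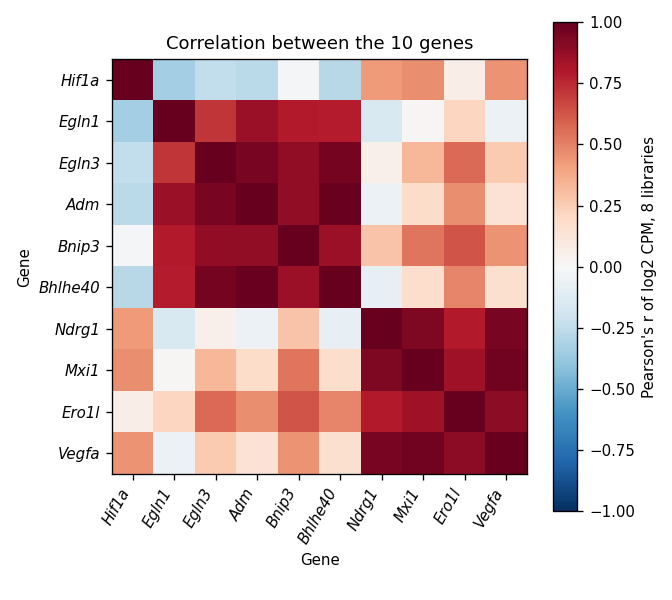
Pearson's r of log2 CPM over the 8 libraries for each pair of the 10 genes (colour scale from −1 to 1). The 5 genes from Egln1 to Bhlhe40 form a block with r of at least 0.71 and the 4 genes from Ndrg1 to Vegfa one with r of at least 0.79, while Hif1a lies outside both.

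The mean of the 10 standardized profiles was 0.68 to 0.96 SD above the average at 0 µM, 0.66 to 0.78 SD below it at 2 µM and 0.20 to 0.25 SD below it at 10 µM. Among the genes tested outside the 10, those most like this mean profile over the 8 libraries were Il1rn and Cp (both r = 0.99), Litaf (0.99), Lhfpl2 (0.98), Ecm1 (0.98), Tgfbi (0.98), Fam117a (0.97), Stat3 (0.97), Spon2 (0.97) and Adamts7 (0.97). None of them is in the lists of HIF pathway genes described next, and whether any of them is a HIF target was not tested. When Spearman's rho was used, 2 of these 10 genes were again among the first 10.

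The gene lists below were also drawn up with earlier results of these data known. Their counts and medians beside those of all genes are therefore a description and no test of the lists. Genes of the oxygen-sensing machinery gave no call. Of 17 genes in this list, 16 were tested, and 0 passed in edgeR and 0 in DESeq2 in each comparison. At 2 µM, at 10 µM and between 10 and 2 µM, 1, 2 and 2 genes had an unadjusted edgeR p under 0.05, all lower. The share of all genes under that p is not given here, so nothing is read from these counts. The list's median log2 fold change was −0.07 at 2 µM and −0.06 at 10 µM. Arnt, the β subunit, had 60.5 ± 20.6, 40.0 ± 10.2 and 45.9 ± 8.59 CPM at 0, 2 and 10 µM (SD, n = 3, 3 and 2), and its libraries overlapped between doses (log2 fold change −0.61 at 2 µM, edgeR adjusted p = 0.172). Egln2, which encodes PHD1, had log2 fold changes of 0.09 (adjusted p = 0.62 in edgeR) and −0.13 (adjusted p = 0.443) at the 2 doses. Hif1an, the asparaginyl hydroxylase of HIF, had −0.31 (edgeR, adjusted p = 0.44) and −0.30 (adjusted p = 0.446). Vhl, the recognition subunit of the ligase, had 39.0 ± 1.55, 35.9 ± 0.838 and 28.6 ± 1.30 CPM, and its log2 fold change of −0.44 at 10 µM had an edgeR adjusted p of 0.00615 but missed the fold threshold. Epas1, which encodes HIF2α, averaged 0.531 to 0.575 CPM at the 3 doses and did not pass the filter on low counts.

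The second list held paralogs and partners of the 10 genes, of which 21 of 24 were tested. At 2 µM 0 were called by edgeR or DESeq2, and the median log2 fold change was −0.19, compared to −0.01 for all genes. At an unadjusted edgeR p under 0.05, 11 were lower and 0 higher, again without a share of all genes beside them. Of the 21, 8 lay below all untreated libraries and 0 above (12.9% and 12.7% of all genes). Only Mxd1 and Mxd4 of this list passed in any comparison, both relatives of Mxi1 in the MXD family, which also antagonize MYC. Mxd3, of the same family, did not pass. Its log2 fold changes were 0.09 at 2 µM, −0.14 at 10 µM and −0.24 between 10 and 2 µM. Mxd1 had 11.2 ± 0.720, 7.51 ± 0.239 and 17.0 ± 0.732 CPM at 0, 2 and 10 µM, and Mxd4 had 25.0 ± 1.09, 17.9 ± 0.884 and 27.9 ± 0.0281 CPM (SD, n = 3, 3 and 2). Both rose between 2 and 10 µM, Mxd1 by a log2 fold change of 1.18 (SE 0.111, edgeR adjusted p = 4.55e-05) and Mxd4 by 0.65 (SE 0.0907, edgeR adjusted p = 0.000703), and both calls held in all 8 fits that left out a library. At 2 µM neither passed against 0 µM (−0.58, edgeR adjusted p = 0.0152, and −0.48, edgeR adjusted p = 0.0122), and the rise of Mxd1 at 10 µM against 0 µM (0.60, edgeR adjusted p = 0.0038) was lost in 7 of these 8 fits (it held without the first 2 µM library) and with DESeq2.

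The nearest paralogs of the other members did not pass at either dose. Bnip3l, a mitophagy receptor like Bnip3, had 174 ± 9.22, 142 ± 2.99 and 135 ± 12.7 CPM, with log2 fold changes of −0.29 (edgeR adjusted p = 0.0495) and −0.37 (edgeR adjusted p = 0.0139). For Bhlhe41 these were −0.37 (edgeR adjusted p = 0.0507) and −0.36 (0.0418), for Vegfb −0.35 (0.158) and −0.37 (0.116), and for Ero1lb −0.43 (0.229) and 0.19 (0.572). Ndrg3 had 104.4 ± 5.72, 104.1 ± 0.444 and 95.3 ± 1.24 CPM, so that its log2 fold change was −0.00 at 2 µM (edgeR adjusted p = 0.987). Ndrg2 and Ndrg4, named after their values were seen, did not pass either. Ndrg2 had 6.14 ± 1.03, 3.56 ± 0.574 and 3.94 ± 0.829 CPM, a log2 fold change of −0.77 at 2 µM (edgeR adjusted p = 0.0449). Ndrg4 had 6.90 ± 1.24, 4.57 ± 0.620 and 7.38 ± 0.0783 CPM, with −0.58 at 2 µM (edgeR adjusted p = 0.072) and 0.70 between 10 and 2 µM (edgeR adjusted p = 0.0168), so that, as for Ndrg1, its 2 µM libraries lay below all others. Max, the shared partner of MYC and MXD proteins, had 0.06 (edgeR adjusted p = 0.878) and −0.42 (0.167).

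A further list, likewise drawn up with earlier results known, held 43 other HIF targets outside glycolysis, of which 38 were tested. At 2 µM 1 gene was called lower (0.378% of all genes were), and 22 of the 38 lay below all untreated libraries and 5 above (12.9% and 12.7% of all genes), with a median log2 fold change of −0.35, compared to −0.01 for all genes. DESeq2 called 6 lower, where it called 109 of all genes in either direction. At 10 µM against 0 µM 8 fell and 1 rose (1.14% and 1.95% of all genes did), with a median of −0.41, compared to 0.02 for all genes. Between 10 and 2 µM 3 fell and 1 rose (1.59% and 3.92% of all genes did), and the median was −0.05, compared to 0.03 for all genes.

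Ccng2, an atypical cyclin linked to growth arrest, was the gene called at 2 µM. It fell from 77.8 ± 8.75 CPM at 0 µM to 42.1 ± 1.93 CPM at 2 µM (log2 fold change −0.89, SE 0.0905, edgeR adjusted p = 0.00109), a call lost without the second 2 µM library, and lay at 57.3 ± 3.50 CPM at 10 µM. In these 3 lists together, the count of 1 gene at 2 µM became 8 without the first 0 µM library and 2 without either 10 µM library.

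Of the genes that fell at 10 µM, 3 encode enzymes that modify collagen. Their relatives P4ha1, Plod1, Lox and Loxl4 in this list were not called at 10 µM (log2 fold changes −0.38, −0.54, −0.35 and −0.05). P4ha2, a collagen prolyl hydroxylase subunit, fell from 85.9 ± 4.21 to 48.0 ± 4.90 CPM (log2 fold change −0.84, SE 0.0861, edgeR adjusted p = 0.000114), and Plod2, a lysyl hydroxylase, from 102.8 ± 5.51 to 61.8 ± 0.158 CPM (−0.73, SE 0.0845, edgeR adjusted p = 0.000282). Loxl2, a lysyl oxidase, fell from 13.1 ± 0.773 to 8.24 ± 0.491 CPM (−0.67, edgeR adjusted p = 0.00372), and lost its call without replicate 3 at 0 µM or either 10 µM library. The largest drop was that of Ankrd37, from 11.8 ± 1.87 CPM at 0 µM to 4.16 ± 0.109 CPM at 10 µM (log2 fold change −1.48, SE 0.182, edgeR adjusted p = 0.000408), with 6.27 ± 1.06 CPM at 2 µM. Its libraries were ordered like those of Adm and Bhlhe40, with no overlap between doses.

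Tfrc, the transferrin receptor, whose mRNA is also controlled by iron, had 313 ± 22.5 CPM at 0 µM, 416 ± 5.05 CPM at 2 µM and 161 ± 7.003 CPM at 10 µM, and fell at 10 µM against 0 µM (log2 fold change −0.96, SE 0.0825, edgeR adjusted p = 3.31e-05). Jmjd6, a 2-oxoglutarate-dependent oxygenase, fell from 64.1 ± 2.95 to 37.0 ± 0.00824 CPM (−0.79, edgeR adjusted p = 0.000129), and Ak4, a mitochondrial adenylate kinase, from 43.6 ± 1.81 to 25.8 ± 1.11 CPM (−0.75, edgeR adjusted p = 0.000344). The stanniocalcin genes, which encode secreted glycoproteins, went in opposite directions. Stc1 fell from 9.35 ± 0.439 to 5.02 ± 1.33 CPM at 10 µM (−0.92, edgeR adjusted p = 0.00496), a call lost without replicate 2 or 3 at 0 µM, replicate 2 at 2 µM or replicate 1 at 10 µM. Stc2 rose from 10.7 ± 0.767 to 21.1 ± 2.02 CPM (0.98, SE 0.117, edgeR adjusted p = 0.000351).

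Between 10 and 2 µM, Tfrc fell by 1.37 on the log2 scale (SE 0.0838, edgeR adjusted p = 2.07e-06) and Jmjd6 by 0.84 (SE 0.0824, edgeR adjusted p = 6.85e-05). Angptl4, a secreted inhibitor of lipoprotein lipase, fell from 3.57 ± 0.438 to 1.70 ± 0.337 CPM (log2 fold change −1.08, edgeR adjusted p = 0.00469), a call lost without the second 2 µM or either 10 µM library. Rora, a nuclear receptor of the circadian clock, was at 14.2 ± 2.03 CPM at 0 µM, 7.92 ± 1.78 CPM at 2 µM and 14.3 ± 2.16 CPM at 10 µM. Its rise between 2 and 10 µM (0.82, edgeR adjusted p = 0.00855) held without replicate 1 at 0 µM or replicate 3 at 2 µM and was lost without each of the other 6 libraries.

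**Figure D4:**
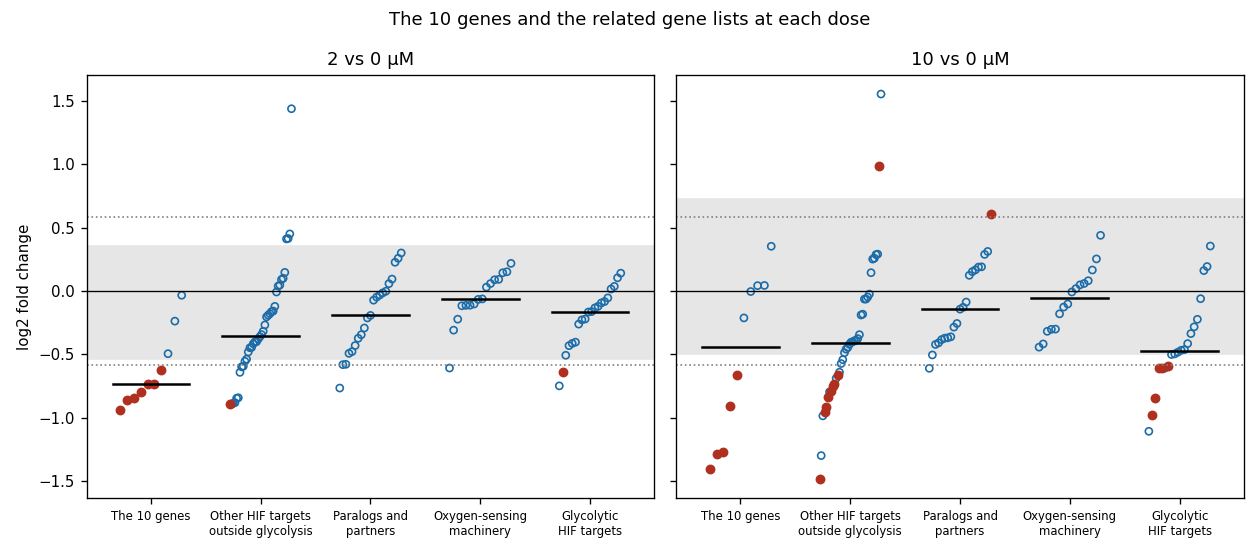
log2 fold change at 2 µM (left) and 10 µM (right) against 0 µM for the 10 genes and the tested genes of 4 lists (38, 21, 16 and 20 genes), with 1 point per gene, sorted within each list. Red points passed both thresholds (adjusted p below 0.01, fold change above 1.5), black lines are medians, grey bands hold the middle 90% of all 14296 genes and dotted lines mark a fold change of 1.5. The median of the other HIF targets is −0.35 at 2 µM and −0.41 at 10 µM, and that of the oxygen-sensing machinery −0.07 and −0.06.

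The glycolytic HIF targets are given for comparison by their counts. All 20 were tested, and 1 fell at 2 µM and 5 at 10 µM, where 0.378% and 1.14% of all genes were called lower. Their median log2 fold changes were −0.16 and −0.48, compared to −0.01 and 0.02 for all genes. The smallest p at 2 µM was that of Pfkp (−0.64, edgeR adjusted p = 0.00121), and at 10 µM that of Pfkl (−0.98, edgeR adjusted p = 2.89e-05), both of which encode phosphofructokinase subunits. Between 10 and 2 µM Pfkl also had the smallest p (−0.75, edgeR adjusted p = 0.000141). It was the 1 gene called, where 1.59% of all genes were called lower.

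Scaling by total counts only, in place of TMM, moved the median of all genes to 0.07 at 2 µM, 0.23 at 10 µM and 0.16 between 10 and 2 µM. Under that scaling, Hif1a at 2 µM (0.05), Mxi1 (0.21) and Ero1l (0.001) at 10 µM, and Bnip3 between 10 and 2 µM (0.02) changed sign. Relative to the median of all genes, the values differed little between the scalings, as for Ero1l at 10 µM (−0.23 under both) and Bnip3 between 10 and 2 µM (−0.14 under both). Under that scaling 4 of the 10 genes lay past the thresholds at 2 µM (Adm, Bnip3, Ndrg1 and Ero1l). The count was also 4 at 10 µM against 0 µM, where Egln1 at −0.45 missed the fold threshold, and 4 between 10 and 2 µM. Over all genes, total counts gave 66, 904 and 1002 calls in these comparisons, compared to 71, 442 and 788 with TMM. Of the 10 pathway genes outside glycolysis called at 10 µM against 0 µM, 5 kept their call under that scaling, and Plod2, Loxl2, Stc1, Jmjd6 and Ak4 did not.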

How the data were processed

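The authors deposited raw counts per gene for each library, as whole numbers without normalization. Reads were trimmed, aligned to mm10 with STAR 2.5.2a and counted with featureCounts, according to the submitters' processing notes, and the annotation and the strand setting are not given in the sources used here. Libraries were grouped by the dose in their labels. The 10 genes and all gene lists were chosen with earlier results of these data known. All 24460 genes entered edgeR 4.0.16 in R 4.3.3 (TMM, filterByExpr, quasi-likelihood test, Benjamini-Hochberg adjustment over the 14296 genes tested), with the dose as the only factor over 8 libraries, so that the 2 libraries at 10 µM shared the estimate of spread. The study used DESeq2, here 1.42.0 as an alternative. The SE is the log2 fold change divided by the square root of F. The pipeline was tested on simulated counts. Each library was treated as its own replicate. Even the closest pair, replicates 2 and 3 at 0 µM, had a chi-square of 3.62 times its degrees of freedom, above sampling noise. Replicate 1 at 0 µM, the library with the fewest counts, gave 18.4 and 24.1 against these replicates. The pairs at 2 and 10 µM gave 4.45 to 12.6. Such values do not show that the libraries came from separate cultures. Named were the 10 genes, each list gene called in a comparison, a fixed set of pathway genes and nearest paralogs, the glycolytic gene with the smallest p, and the 10 genes most alike. log2 CPM for correlations used a prior count of 2. Gene positions came from GENCODE M21 on GRCm38, and promoter windows from RefSeq on GRCm38.p6. Alternatives were other scalings, filters and thresholds, DESeq2, only the 2 groups compared, the replicate block and each library left out. Tables and motif searches were made in Python 3.11.15 (numpy 2.4.6, pandas 2.3.3).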

Additional observations from a re-analysis of the deposited data

How the results depend on the processing

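With 3, 3 and 2 libraries, counts of called genes moved with the settings. No called difference of the 10 genes or of the pathway genes changed direction, which was not checked for the other genes. Over all genes, 71 were called at 2 µM, 442 at 10 µM and 788 between 10 and 2 µM. DESeq2 called 109 at 2 µM, total counts 904 at 10 µM, and an adjusted p under 0.05 without a minimum fold change 595, 1991 and 3346. Leaving out each library in turn gave 6 to 144, 235 to 633 and 444 to 884. The highest count of each range came without replicate 1 at 0 µM. Of the 10 genes, 7 were called at 2 µM, 5 at 10 µM and 2 between 10 and 2 µM. Total counts gave 4 at 2 µM, 4 at 10 µM (Egln1 no longer passed) and 4 between 10 and 2 µM, the relaxed threshold gave 7 between 10 and 2 µM, and leaving out a library gave 0 to 6, 4 to 5 and 1 to 3. Of the 75 tested pathway genes, 1, 10 and 6 were called. At 2 µM this became 6 without a filter, 6 with DESeq2, 2 with only the 2 groups compared and 0 to 8 without a library, at 10 µM 5 with total counts and 7 to 13 without a library, and between 10 and 2 µM 5 to 7 without a library. The relaxed threshold gave 20, 31 and 20. The numbers of the replicates did not pair the libraries by the rule used, which asked for a correlation over 0.1 in each pair (0.199, 0.0845 and 0.161 between 0 and 2 µM, where each library correlated best with its own number), so the replicate block is given here only. With the replicate block 54, 322 and 735 of all genes, 3, 4 and 3 of the 10 genes, and 1, 7 and 5 of the pathway genes were called. Of the 10 genes' log2 differences under all settings, 451 moved by less than the spread between replicates and 29 by more. Vegfa at 10 µM, which was not called, changed from 0.04 to −0.02 without replicate 2 at 0 µM. TMM over nuclear genes and RLE normalization moved none of these counts by more than 1.5 times, and the causes were not tested. For the likeness ranking, Spearman's rho kept 2 of the 10 genes.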
